A study of Mus musculus with 6 samples.

Results

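The genes described here are 41 genes of glucose uptake, glycolysis, lactate handling, pyruvate dehydrogenase control, gluconeogenesis and glycogen metabolism, chosen as a textbook list by pathway step, out of 21313 genes with at least 1 count. RNA came from Hepa1-6 cells, a mouse hepatoma line grown in medium with 4.5 g/L glucose and 10% serum. For 3 days the cells received, with Lipofectamine RNAiMAX, either siRNA against Renilla luciferase, which mouse cells lack (the control, 3 libraries), or siRNA against Crebl2, which encodes a basic leucine zipper protein of the CREB family (3 libraries). Neither the number of siRNA sequences used per target nor the origin of replicate libraries in separate cultures is given in the labels, so p-values measure the spread between these libraries, which may be technical. Values are CPM, counts scaled to the size of each library, computed from deposited read counts per transcript, summed per gene, and a gene is called when the adjusted p of edgeR's quasi-likelihood test over all genes is under 0.05.

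Glycolysis splits glucose to pyruvate in the cytosol, with hexokinase and phosphofructokinase as its regulated entry steps. Pyruvate either becomes lactate, which leaves through monocarboxylate transporters, or enters the mitochondrion, where pyruvate dehydrogenase kinases limit its oxidation. The liver also runs the route backwards, making glucose from lactate and amino acids, and stores glucose as glycogen. Hepatoma cells commonly carry the isozymes of proliferating cells in place of those of adult liver.

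Total counts per library ran from 27082572 to 29158489. Crebl2 itself had 114, 113 and 112 CPM in the control libraries and 29.1, 29.8 and 32.3 CPM after Crebl2 siRNA, 26.9% of the control mean (log2 fold change -1.90, SE 0.0582; edgeR adjusted p = 2.82e-12). Of 13 hepatocyte markers, Alb was well counted (581 ± 29.2 CPM in controls, SD, n = 3), whereas Apoa2, Serpina1a and Hnf4a had 0 counts. In Crebl2 siRNA replicate 2, mitochondrial genes took 0.859% of counts, against 2.09 to 2.52% in the other 5 libraries. Leaving that library out ended the call of 1 of the 41 genes, Aldoc, and added none.

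How many of these genes could be read at all depended on the counting. Reads falling on bases that several listed transcripts share were apparently not counted, so that a count reflects the bases unique to 1 transcript. Of the 41 genes, 29 passed the filter on low counts, 19 had at least 1000 counts over the 6 libraries, and 12 were not tested. Ldha, the lactate dehydrogenase subunit that favours lactate formation, had 1 count in all, on a transcript with 49 unique bases of 1815. The sum for Aldoa was 643 counts and for Eno1 236, although both are abundant glycolytic enzymes in most cells. Low counts of these genes therefore say nothing of their expression. By contrast, all bases of the counted transcript of Slc2a2 (17 counts), the glucose transporter of adult hepatocytes, of Pdk3 (1 count) and of Fbp1, the gluconeogenic fructose bisphosphatase (0 counts), were unique. Pfkfb4, Eno2 and Pygl also had 0 counts, on transcripts with 0, 52 and 351 unique bases, and Pfkm, Pfkp, Gyg, Gbe1 and Ppp1r3b had between 1 and 52. Levels of different genes are compared below only as CPM per kilobase of unique bases, and only where there are at least 200 of them.

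**Figure D1:**
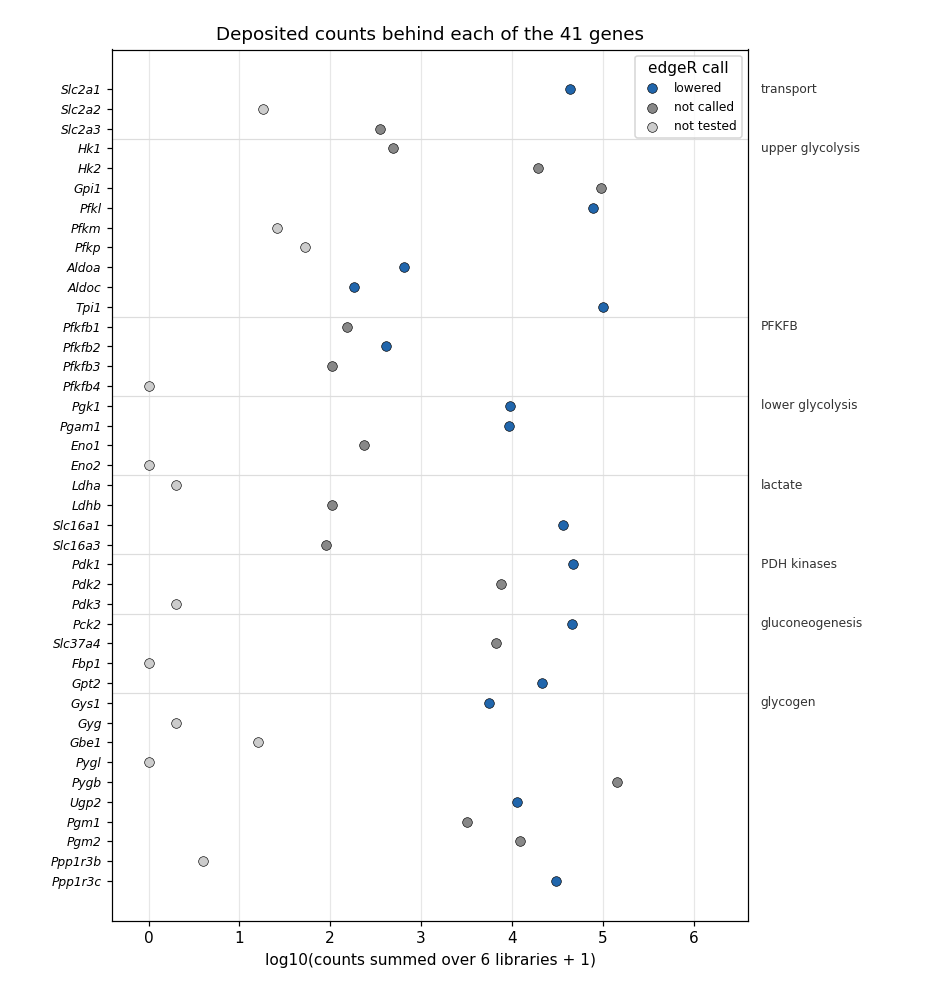
Deposited counts summed over the 6 libraries (x axis, log10 of counts + 1) for each of the 41 genes (y axis, ordered by step), coloured by the edgeR call. Ldha sits at 1 count and Pfkfb4, Eno2, Fbp1 and Pygl at 0, while Pygb, with 143076 counts, lies farthest to the right.

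Of the 29 tested genes, 15 fell, 0 rose and 14 were not called. Among all 11616 tested genes 38.9% were called, 20.1% lowered and 18.8% raised. The median log2 fold change of the 29 was -0.19, against 0.01 over all tested genes. The groups did not overlap for 16 of the 29, where 48.7% of all tested genes showed no overlap. The falls were modest, from -0.14 for Pdk1 to -0.72 for Pfkfb2 on the log2 scale, 6 of the 15 were at least 1.5-fold, and none was 2-fold. With library size as the only scaling, 13 fell and 2 rose, and over all genes 2741 rose and 1920 fell, in place of 2180 and 2338.

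**Figure D2:**
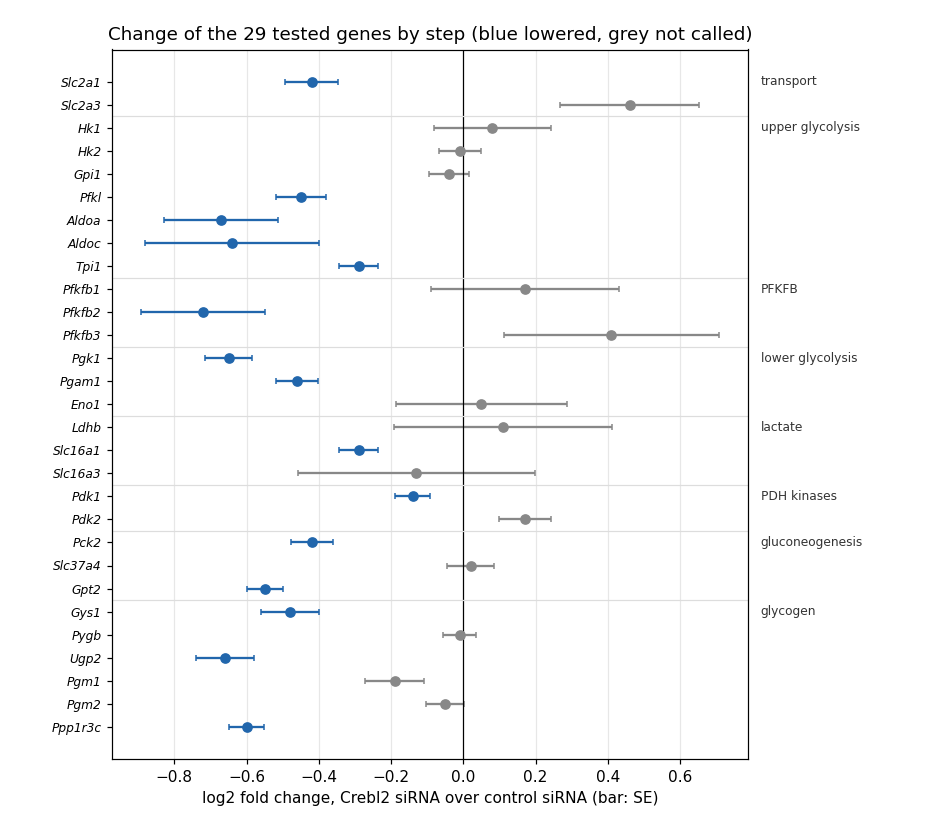
Log2 fold change of Crebl2 siRNA over control siRNA (x axis; bar, SE) for the 29 tested genes (y axis, by step), with lowered genes in blue and uncalled genes in grey. Lowered genes occur in all 8 steps, and those without a call include Hk2, Gpi1, Pygb and Slc37a4 close to 0.

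Promoter sequences are given for the 4 lowered genes with the largest log2 fall, Pfkfb2, Aldoa, Ugp2 and Pgk1, and for Slc2a1, of the isozyme pair whose ratio changed most. Each is the 250 bases before the RefSeq transcription start (GRCm38.p6) nearest to the counted transcript, read 5′ to 3′ on the gene's strand. Capitals mark ACGTG, the core of the hypoxia response element, on either strand (CACGT is its complement, and CACGTG, the E-box, holds both).

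Pfkfb2 (chr1:130715822-130716071, minus strand): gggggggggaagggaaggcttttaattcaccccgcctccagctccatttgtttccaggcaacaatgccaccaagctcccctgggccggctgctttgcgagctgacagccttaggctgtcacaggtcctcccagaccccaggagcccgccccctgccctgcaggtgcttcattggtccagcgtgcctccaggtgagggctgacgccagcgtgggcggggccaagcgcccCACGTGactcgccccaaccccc

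Aldoa (chr7:126799179-126799428, minus strand): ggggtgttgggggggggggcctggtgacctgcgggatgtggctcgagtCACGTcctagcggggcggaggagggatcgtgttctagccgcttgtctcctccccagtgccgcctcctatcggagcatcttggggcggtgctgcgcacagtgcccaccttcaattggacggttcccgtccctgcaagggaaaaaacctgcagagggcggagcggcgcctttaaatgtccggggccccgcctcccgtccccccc

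Ugp2 (chr11:21370630-21370879, minus strand): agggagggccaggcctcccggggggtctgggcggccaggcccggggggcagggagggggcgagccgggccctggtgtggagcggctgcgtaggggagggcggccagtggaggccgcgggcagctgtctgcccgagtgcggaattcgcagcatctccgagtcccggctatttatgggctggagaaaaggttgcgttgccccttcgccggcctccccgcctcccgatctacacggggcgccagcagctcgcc

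Pgk1 (chrX:106186850-106187099, plus strand): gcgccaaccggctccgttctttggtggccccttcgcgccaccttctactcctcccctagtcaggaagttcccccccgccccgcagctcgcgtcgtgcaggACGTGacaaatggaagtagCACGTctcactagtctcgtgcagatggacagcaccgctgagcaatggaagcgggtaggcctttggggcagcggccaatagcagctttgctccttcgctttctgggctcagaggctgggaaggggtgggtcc

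Slc2a1 (chr4:119108495-119108744, plus strand): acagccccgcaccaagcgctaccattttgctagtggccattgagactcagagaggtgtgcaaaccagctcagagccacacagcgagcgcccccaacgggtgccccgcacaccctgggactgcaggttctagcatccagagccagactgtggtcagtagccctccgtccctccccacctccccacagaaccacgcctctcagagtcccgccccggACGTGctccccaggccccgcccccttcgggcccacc

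In windows of 250 bases before to 50 after the start, taking a gene as positive when any of its RefSeq windows matched on either strand, ACGTG was found in 9 of 15 lowered genes (60%), in 8 of 13 tested genes without a call that have a window (61.5%), and in 28.9% of 8333 tested genes. The shares of lowered and uncalled genes were within a few percentage points of each other. GCGTG, the other form of that core, was found in 66.7%, 46.2% and 54.6% of the same sets. TGACG, the core of the cAMP response element bound by CREB proteins, was found in 1 lowered gene, Pfkfb2 (6.67%), in 6 uncalled ones (46.2%), namely Hk2, Pfkfb3, Slc16a3, Pdk2, Slc37a4 and Pygb, and in 34.6% of tested genes. The full element TGACGTCA, which contains that core on both strands, was found in none of the 28 genes and in 3.5% of tested genes. Ldha, which was not tested and so lies outside these sets, has 1 match to it, in the window chr7:46845554-46845853. A match describes the letters of the window and not a bound site.

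Of the 2 glucose transporter genes tested among the 41, Slc2a1 was called. Slc2a1 (GLUT1), the transporter of most proliferating cells, had 293, 287 and 317 CPM in the controls and 238, 240 and 190 CPM after Crebl2 siRNA. All Crebl2 siRNA libraries lay below all controls, with replicate 3 the lowest, and the gene fell to 74.5% of control (log2 fold change -0.42, SE 0.0732; edgeR adjusted p = 0.000226). Slc2a3 (GLUT3), a high-affinity transporter best known from neurons, had 2.24, 1.68 and 1.40 CPM in the controls and 2.61, 2.49 and 2.24 CPM after knockdown. Its groups touched at 2.24 CPM, and it was not called (log2 fold change 0.46, SE 0.192; edgeR adjusted p = 0.0712), on 149 control and 204 knockdown counts. It was called higher with library size scaling (edgeR adjusted p = 0.0469) and without control replicate 1 (0.019). Per kilobase of unique bases the control level was 94.8 CPM for Slc2a1 and 0.449 CPM for Slc2a3.

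In upper glycolysis, Pfkl and Tpi1 fell, and so did Aldoa and Aldoc on few counts, while Hk1, Hk2 and Gpi1 were not called. Hk2, the inducible hexokinase, had 110, 113 and 127 CPM in the controls and 114, 119 and 114 CPM after knockdown, and the groups overlapped (log2 fold change -0.01, SE 0.0583). Its control level per kilobase of unique bases was 41.3 CPM, against 3.71 CPM for Hk1, the constitutive form, whose log2 fold change was 0.08 (SE 0.162) on 495 counts. Gpi1, the glucose-6-phosphate isomerase, had 560, 604 and 589 CPM in the controls and 606, 577 and 526 CPM after knockdown, with groups that overlapped (log2 fold change -0.04, SE 0.055).

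Pfkl, the liver isozyme of phosphofructokinase, which commits sugar to glycolysis, had 516, 546 and 552 CPM in the controls and 422, 421 and 338 CPM after Crebl2 siRNA. The groups lay well apart, and replicate 3 was again the lowest (log2 fold change -0.45, SE 0.0696; edgeR adjusted p = 7.76e-05). The muscle and platelet isozymes Pfkm and Pfkp had 25 and 52 counts in all, so this step was read almost wholly through Pfkl. Tpi1, which interconverts the triose phosphates, fell from 673, 654 and 672 CPM to 575, 564 and 502 CPM (log2 fold change -0.29, SE 0.0533; edgeR adjusted p = 0.000456). Aldoa, the main aldolase of muscle and proliferating cells, fell from 3.89, 4.80 and 5.53 CPM to 3.33, 3.03 and 2.56 CPM (log2 fold change -0.67). It had 395 control and 248 knockdown counts, a ratio of 0.629 (95% exact binomial interval 0.534 to 0.739, counting error only). The Aldoa transcript with 90.4% of these counts has only 153 unique bases of 1549, so the fall was read through a small part of it. Aldoc, the brain aldolase, fell from 1.09, 1.29 and 1.62 CPM to 0.788, 0.828 and 0.938 CPM (edgeR adjusted p = 0.0441) on 182 counts. Aldoc was not called by DESeq2 (adjusted p = 0.162), nor by edgeR when any single library other than control replicate 1 was left out.

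The PFKFB enzymes make and remove fructose 2,6-bisphosphate, the strongest activator of phosphofructokinase. Pfkfb2, the isozyme of heart and other insulin-responsive tissue, had 3.05, 3.12 and 3.03 CPM in the controls and 1.90, 1.48 and 2.20 CPM after knockdown. Controls were close together and all higher than the knockdown libraries, on 256 and 155 counts (log2 fold change -0.72, SE 0.172; edgeR adjusted p = 0.00321). Of its 50-base words, 40.9% also occur in transcripts of another gene, Gm29427. Pfkfb1, the liver isozyme, had 0.947, 0.717 and 0.886 CPM in the controls and 0.752, 1.01 and 1.12 CPM after knockdown (log2 fold change 0.17). Pfkfb3, the inducible isozyme, had 0.526, 0.502 and 0.590 CPM in the controls and 0.537, 0.828 and 0.793 CPM after knockdown (log2 fold change 0.41). Both had overlapping groups and were not called, on 151 and 105 counts.

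Lower glycolysis held 2 of the clearest falls. Pgk1, phosphoglycerate kinase, the first step that yields ATP, had 73.8, 66.5 and 70.4 CPM in the controls and 48.4, 43.2 and 43.0 CPM after Crebl2 siRNA, 63.9% of control (log2 fold change -0.65, SE 0.0641; edgeR adjusted p = 7.78e-07). Pgam1, phosphoglycerate mutase, had 65.9, 60.5 and 65.7 CPM in the controls and 45.1, 46.9 and 48.1 CPM after knockdown, 72.9% of control (log2 fold change -0.46, SE 0.0587; edgeR adjusted p = 1.3e-05). In both, the groups were far apart compared with the spread within them. Both genes have near-identical copies: 68% of the 50-base words of the Pgk1 transcript and 41.5% of those of Pgam1 also occur in transcripts of other genes, such as Pgk1-rs7 and Pgam1-ps2, so reads of those copies may be included or lost. Eno1, enolase, with 58.1% of its words shared, had 0.912, 1.76 and 1.51 CPM in the controls and 1.36, 1.40 and 1.55 CPM after knockdown and was not called (log2 fold change 0.05, SE 0.237).

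Of the lactate genes, Slc16a1 (MCT1), the lactate and pyruvate carrier, fell from 252, 242 and 235 CPM to 186, 204 and 208 CPM (log2 fold change -0.29, SE 0.0535; edgeR adjusted p = 0.000473). Here Crebl2 siRNA replicate 1 was the lowest, not replicate 3. Slc16a3 (MCT4), the exporter of highly glycolytic cells, had 0.526, 0.466 and 0.701 CPM in the controls and 0.609, 0.360 and 0.577 CPM after knockdown (log2 fold change -0.13, SE 0.329). Ldhb, the dehydrogenase subunit that favours pyruvate, had 0.596, 0.753 and 0.443 CPM in the controls and 0.573, 0.720 and 0.649 CPM after knockdown (log2 fold change 0.11, SE 0.302). Neither was called, on 90 and 104 counts, and the groups overlapped in both. The control level per kilobase of unique bases was 54.9 CPM for Slc16a1 and 0.302 CPM for Slc16a3.

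Of the pyruvate dehydrogenase kinases, only Pdk1 was called. Pdk1, a kinase induced by hypoxia, had 293, 289 and 303 CPM in the controls and 258, 277 and 267 CPM after knockdown, 90.7% of control (log2 fold change -0.14, SE 0.048; edgeR adjusted p = 0.0281). Its call was lost with library size scaling (edgeR adjusted p = 0.149) and without control replicate 3 (0.136) or Crebl2 siRNA replicate 1 (0.0905), and with the replicate number as a block (0.0769). Pdk2, the widely expressed kinase, had 40.2, 45.5 and 42.0 CPM in the controls and 51.7, 49.1 and 43.4 CPM after knockdown. Its groups overlapped and it was not called (log2 fold change 0.17; edgeR adjusted p = 0.0654), but it was called higher with library size scaling (0.0223) and without Crebl2 siRNA replicate 3 (0.00627).

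In gluconeogenesis, Pck2 and Gpt2 fell and Slc37a4 was not called. Pck2, the mitochondrial phosphoenolpyruvate carboxykinase, had 305, 330 and 310 CPM in the controls and 255, 234 and 217 CPM after Crebl2 siRNA (74.8% of control; log2 fold change -0.42, SE 0.0583; edgeR adjusted p = 2.76e-05). Gpt2, the mitochondrial alanine transaminase, had 155, 155 and 153 CPM in the controls and 109, 103 and 105 CPM after knockdown (68.4% of control; log2 fold change -0.55, SE 0.0495; edgeR adjusted p = 2.73e-07). Within each group the Gpt2 values lay within a few CPM of each other. Slc37a4, which carries glucose 6-phosphate into the endoplasmic reticulum for release as glucose, had 38.3, 40.3 and 40.3 CPM in the controls and 42.4, 40.7 and 37.6 CPM after knockdown. Its groups overlapped, and it was not called (log2 fold change 0.02, SE 0.064).

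On the glycogen side the genes that fell act in synthesis, while the counted phosphorylase was not called. Ppp1r3c (PTG), a scaffold that brings protein phosphatase 1 to glycogen and so activates glycogen synthase, had 216, 219 and 232 CPM in the controls and 149, 147 and 145 CPM after Crebl2 siRNA. This was 66% of control (log2 fold change -0.60, SE 0.0491; edgeR adjusted p = 9.6e-08), the smallest p of the 29 genes. Ugp2, which makes the UDP-glucose used for glycogen, had 78.9, 85.8 and 83.2 CPM in the controls and 44.7, 53.2 and 59.3 CPM after knockdown (log2 fold change -0.66, SE 0.0796; edgeR adjusted p = 6.78e-06). Gys1, the glycogen synthase of muscle and most non-liver cells, had 36.4, 38.0 and 41.7 CPM in the controls and 30.3, 28.6 and 24.6 CPM after knockdown (log2 fold change -0.48, SE 0.0799; edgeR adjusted p = 0.000175). For each of the 3 genes all Crebl2 siRNA libraries lay below all controls.

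Pygb, the brain form of glycogen phosphorylase, which releases glucose units from glycogen, had 847, 871 and 862 CPM in the controls and 889, 843 and 831 CPM after knockdown. The groups overlapped, and the log2 fold change was -0.01 (SE 0.0464; edgeR adjusted p = 0.902). At 220 CPM per kilobase of unique bases in controls it was read far more than Gys1 at 38.8. Pgm1 and Pgm2, phosphoglucomutases linking glucose 6-phosphate and glucose 1-phosphate (Pgm2 acts mainly on pentose phosphates), were not called. Pgm1 had 20.8, 19.6 and 20.6 CPM in the controls and 19.3, 18.2 and 16.0 CPM after knockdown. Its groups did not overlap, yet the test gave an edgeR adjusted p of 0.0748 (log2 fold change -0.19), and it passed without Crebl2 siRNA replicate 1 (0.0273). The log2 fold change of Pgm2 was -0.05 (SE 0.0527).

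**Figure D3:**
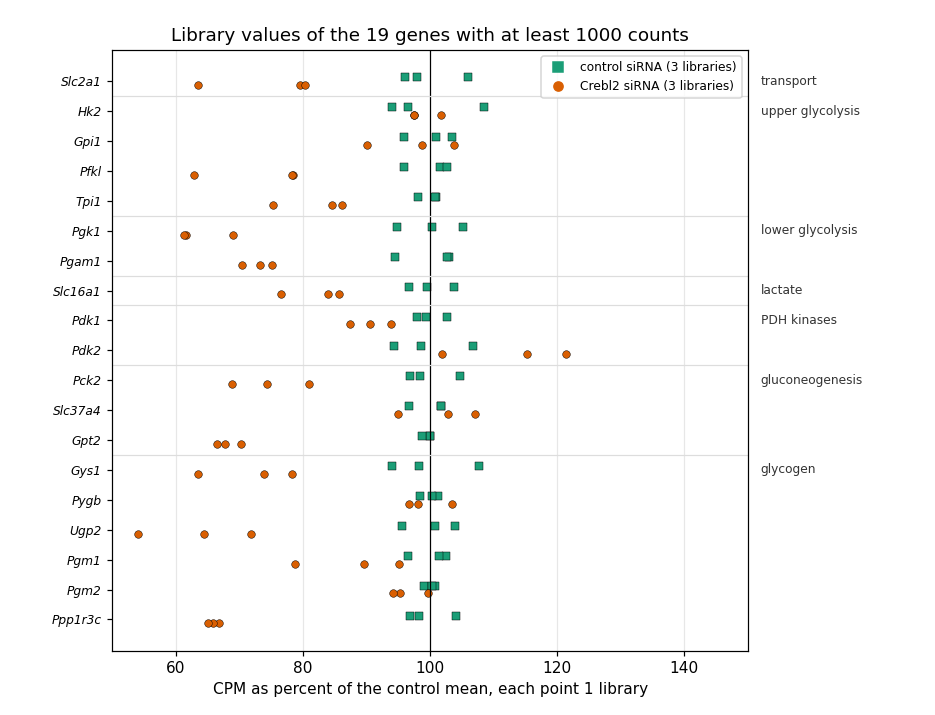
CPM in each library as percent of the gene's control mean (x axis) for the 19 genes with at least 1000 counts (y axis, by step), with squares for control and circles for Crebl2 siRNA libraries. The circles of Ppp1r3c and Gpt2 sit close together and well below the squares, while those of Hk2, Gpi1, Pygb and Slc37a4 overlap the squares.

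Whether isozymes of a step changed unequally was tested as the log2 ratio of their CPM within each library. An exact two-sided permutation test cannot give a p under 0.1 with 3 against 3 libraries, and 10 pairs were compared, of which 4 had both members tested. The ratio of Slc2a3 to Slc2a1 was -7.05 ± 0.323 in controls and -6.24 ± 0.105 after knockdown (SD, n = 3 each), a difference of 0.82 with groups that did not overlap (exact permutation p = 0.1, adjusted over 10 pairs 0.333). For Hk2 over Hk1 the difference was -0.08 (exact permutation p = 0.7, adjusted 0.875), for Aldoc over Aldoa 0.16 (exact permutation p = 0.5, adjusted 0.714) and for Slc16a3 over Slc16a1 0.22 (exact permutation p = 0.2, adjusted 0.5). In the last 3 pairs the groups overlapped.

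**Figure D4:**
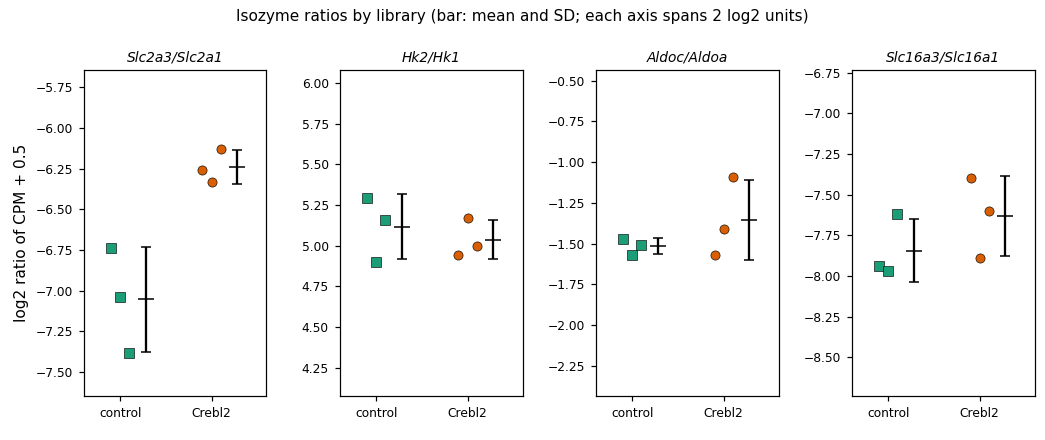
Log2 ratio of CPM + 0.5 of 2 isozymes (y axis) in each control (square) and Crebl2 siRNA (circle) library, with mean and SD beside them, for the 4 pairs whose members were both tested. Only for Slc2a3 over Slc2a1 do the 3 knockdown values lie apart from the 3 control values.

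The other genes of these pathways were taken from a list of 81 enzymes, carriers, subunits and regulators, chosen by role. Of 48 tested, 11 fell and 7 rose, with a median log2 fold change of -0.08. These shares are near the 20.1% lowered and 18.8% raised of all tested genes. DESeq2 called 4 of the genes raised, and edgeR called 4 raised without control replicate 1 and 3 raised without control replicate 2, control replicate 3 or Crebl2 siRNA replicate 2. Another 33 were not tested. Gapdh (16 counts), Txnip (0) and Hif1a (8) have at most 222, 29 and 600 unique bases on a transcript, so their low counts may come from the counting and say nothing of expression. All bases of the listed transcripts of Pck1 and G6pc, the cytosolic carboxykinase and the glucose-6-phosphatase of adult liver, were unique, and both had 0 counts. The steepest fall with many counts was that of Epas1, which encodes the hypoxia factor HIF-2 alpha (means ± SD of 58.7 ± 0.568 and 23.6 ± 1.54 CPM, n = 3 per group, and a log2 fold change of -1.32 with edgeR adjusted p = 3.47e-10). The regulators Mlxipl (ChREBP), Mlxip, Foxo1, Crtc2, Creb1, Myc and Ppargc1a were not called. Ppargc1a lay at the threshold, at 78.4% of control with groups that did not overlap (log2 fold change -0.35, edgeR adjusted p = 0.05, DESeq2 adjusted p = 0.136). Got1, the cytosolic aspartate transaminase, fell by 0.40 on the log2 scale, the intracellular glucose transporter Slc2a8 by 0.44, and Pgm2l1, glucose-1,6-bisphosphate synthase, by 0.42. Slc2a6, another intracellular sugar transporter, had 96 control and 28 knockdown counts (log2 fold change -1.76).

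Among the glycogen genes of that list, Stbd1 fell and Phkb rose. Stbd1, a glycogen-binding membrane protein, had 65.9 ± 0.827 CPM in controls and 49.7 ± 1.06 CPM after knockdown (SD over 3 libraries; log2 fold change -0.41, edgeR adjusted p = 1.85e-05). Phkb, a subunit of phosphorylase kinase, rose by 0.25 (edgeR adjusted p = 0.00891). At pyruvate dehydrogenase, the catalytic subunit Pdha1 fell (302 ± 14.7 to 237 ± 9.09 CPM; log2 fold change -0.35), whereas Pdp2, a phosphatase that reverses the kinases, rose from 122, 115 and 119 CPM to 154, 152 and 153 CPM (log2 fold change 0.36; edgeR adjusted p = 2.1e-05). The other subunits of the complex, Pdhb, Dlat, Dld and Pdhx, were not called (log2 fold changes -0.08, -0.01, 0.02 and 0.12). Pdk4, the kinase induced by fasting, was at 336 ± 2.08 and 335 ± 13.5 CPM (log2 fold change -0.01) and was not called. The hexokinase-like Hkdc1, named after its values were seen, rose on 25 control and 59 knockdown counts (log2 fold change 1.23, SE 0.396; edgeR adjusted p = 0.0211), without a call from DESeq2 (adjusted p = 0.0786). The other transaminases of alanine and aspartate, Gpt (log2 fold change -0.02) and the mitochondrial Got2 (0.03), also named after their values were seen, were not called. Mdh2, mitochondrial malate dehydrogenase, rose by 0.20 and Adpgk, the ADP-dependent glucokinase, by 0.20, with edgeR adjusted p = 0.00444 and 0.0159. The call of Phkb was lost without control replicate 2 or 3 (log2 fold change 0.22 or 0.20), and that of Adpgk without control replicate 1 or 3 (0.17 or 0.20) or Crebl2 siRNA replicate 1 or 2 (0.16 or 0.20).

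**Figure D5:**
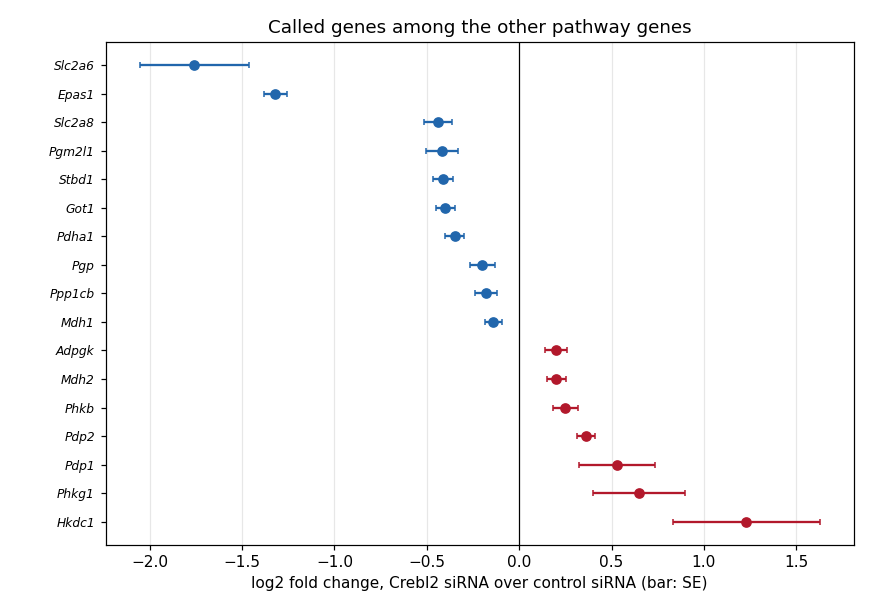
Log2 fold change (x axis; bar, SE) of called genes among the 81 other pathway genes (y axis), with 10 lowered in blue and 7 raised in red. Slc2a6 and Epas1 lie farthest to the left, at -1.76 and -1.32.

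Some other measures can be set beside these falls. A 7-base word, GAAATGT, which an earlier analysis of the same data found in a larger share of lowered than of uncalled genes, lies in an annotated 3′ UTR of 5 of the 15 lowered genes (Pfkfb2, Slc16a1, Pdk1, Pck2 and Ppp1r3c) and of 3 of the 14 without a call (Hk2, Pfkfb3 and Pdk2). Of the other pathway genes described above, Epas1, Pdha1 and Pgm2l1 (lowered) and Pdp2 (raised) hold the word too. It was not found in Slc2a6, Slc2a8, Got1, Stbd1, Mdh2, Phkb or Adpgk. Over all tested genes with a 3′ UTR searched, 20.1% hold the word, 30.4% of the lowered, 18.4% of the uncalled and 13.5% of the raised ones. Because the word was picked from these same data, the shares of lowered and uncalled genes are no independent observation. The shares were not adjusted for 3′ UTR length. Of markers of other cell types, the fibroblast list of 7 summed to 176 to 182 CPM in controls and 119 to 131 CPM after knockdown, nearly all of it Dcn, with Col3a1 and Pdgfrb at 0. The macrophage list of 6 went from between 36.1 and 37.6 to between 22.3 and 27 CPM, nearly all Cd14, with Ptprc at 0. The endothelial list of 6 went from between 19.6 and 23.1 to between 33.1 and 37.2 CPM, nearly all Vwf, with Tek and Emcn at 0. All 3 adipocyte markers were at 0, and 3 muscle markers summed to at most 0.644 CPM. The part of any of these in the changes above was not tested, and in bulk RNA fewer cells of a kind and less RNA per cell cannot be told apart.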

How the data were processed

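RNA of 6 Hepa1-6 libraries was sequenced, 3 per siRNA group. The authors deposited raw, unnormalized counts for 58611 Ensembl transcripts in each library. The submitters' processing notes name Trim Galore, TopHat, HTSeq, mm9 and GRCm38 but no roles or settings, and no source used here says whether counting used strand. Of the transcripts, 58264 matched GENCODE M21 (GRCm38) and 347, with at most 0.0497% of a library's counts, did not. From these deposited counts, sums per gene symbol were tested with edgeR 4.0.16 (R 4.3.3; TMM, filterByExpr, quasi-likelihood test, two-sided, Benjamini-Hochberg over 11616 genes); SEs come from the fold change and its F statistic. CPM use TMM-scaled library sizes. Alternatives were DESeq2 1.42.0, limma-voom (limma 3.58.1), other scalings and filters, a 1.2-fold test, a replicate block, single transcript rows, leaving out genes that hold a 3′ UTR word, and each library left out. The edgeR procedure was tested on simulated counts.

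Promoters were printed for the lowered genes with the largest fall and the isozyme pair whose ratio changed most (Slc2a3 of that pair is not shown). All 41 genes are accounted for by name, with library values for called genes whose groups did not overlap and for the best counted genes of each step. Of the other pathway genes, values are given for at most 12 called genes with the smallest p. The values of 1 lowered gene among them are not reported here, although it is in the counts. Genes, lists, motifs and tests were chosen with earlier results of these data known. Promoters are from RefSeq (GRCm38.p6). Unique bases are those that no other listed transcript covers on either strand. Intervals at the 95% level cover counting error only, and no molecular identifiers are named for these libraries.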

Additional observations from a re-analysis of the deposited data

How the results depend on the processing

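Across 16 alternative settings 10 to 15 of the 41 genes were lowered, the lowest number being that without genes holding the 3′ UTR word, where 8 tested genes drop out by construction. Aldoc lost its call under DESeq2, limma-voom, library size scaling, the 1.2-fold test, the replicate block, transcript rows and 5 of 6 runs with a library left out, and Pdk1 under library size scaling, the 1.2-fold test, the block and 2 such runs. The 1.2-fold test, which asks for more than a difference, also lost Slc16a1 and Tpi1, and called 917 genes lowered and 709 raised, with 6 and 0 of the other pathway genes. Library size scaling gave 2 raised genes of the 41 and turned the uncalled Hk2 (0.04), Gpi1 (0.01) and Pygb (0.04) to log2 fold changes above 0. Among the other pathway genes, 4 rose under DESeq2, and 6 fell and 4 rose without genes holding the word. With a library left out, 13 to 15 of the 41 were lowered, 0 to 1 raised, and of the other pathway genes 8 to 14 fell and 3 to 6 rose. In those runs uncalled genes crossed 0 in log2 fold change: Hk1 (-0.07 to 0.18), Hk2 (-0.06 to 0.05), Gpi1 (-0.08 to 0.02), Eno1 (-0.19 to 0.25), Ldhb (-0.06 to 0.31), Slc16a3 (-0.26 to 0.08), Slc37a4 (-0.02 to 0.07) and Pygb (-0.04 to 0.01), and so did the Hk2 to Hk1 ratio (-0.19 to 0.00363). Where not stated by construction, the cause was not tested. Libraries with the same replicate number did not deviate together (correlations -0.133, -0.0444 and -0.0847). This cannot decide whether the numbers pair them, because deviations from a mean of 3 libraries are not independent. With the replicate block 13 of the 41 fell. Genes with few unique bases, Ldha above all, cannot be assessed at any depth with this counting.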

Other observations

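Several pathway genes had counts on more than 1 transcript, and the transcripts of a gene did not always move together (these were chosen after their values were seen, and the differences between transcripts were not tested). For Pkm, pyruvate kinase, the last enzyme of glycolysis, the better counted transcript had 2850, 2773 and 2811 counts in controls and 2750, 2413 and 2064 after Crebl2 siRNA (log2 fold change -0.22, edgeR adjusted p = 0.0266 over transcript rows). Its other transcript had 455, 414 and 429 counts in controls and 573, 556 and 428 after knockdown (log2 fold change 0.26, edgeR adjusted p = 0.0442), and the gene as a whole was not called (log2 fold change -0.15, edgeR adjusted p = 0.141). For Ugp2, the main transcript carried the fall (log2 fold change -0.68), while a shorter one with 187 unique bases had 37, 40 and 41 counts in controls and 47, 45 and 49 after knockdown (log2 fold change 0.26, edgeR adjusted p = 0.328 over transcript rows). For Aldoa, the first transcript fell by 0.81 on the log2 scale (edgeR adjusted p = 0.000636 over transcript rows), and the second, with 7, 6 and 12 counts in controls and 13, 12 and 9 after knockdown, was not called (log2 fold change 0.44, edgeR adjusted p = 0.426).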
